A study of Mus musculus with 8 samples.

Results

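The 8 transcription factor genes studied here belong to the heart-forming and foregut mesoderm and were followed in dissected mouse tracheae: the zinc-finger genes Gata4, Gata5 and Gata6, the homeodomain genes Nkx2-5 and Isl1, the basic helix-loop-helix genes Hand1 and Hand2, and the T-box gene Tbx20. They were taken by symbol from both deposited tables, and all 8 were found, out of 37282 gene symbols in all. Embryos of 2 stages, E11.5 and E13.5 in days of gestation, gave the tracheae, and were either control or WlsShhCre, called mutant here, with 2 libraries in each of the 4 groups. Wls encodes the carrier that Wnt ligands need for secretion, and Shh, whose locus drives the Cre, is expressed in foregut and airway epithelium. The labels give total RNA of dissected trachea as the material; they do not give the control genotype, the strain, or whether a library holds 1 embryo or a pool, so p-values measure the spread between libraries.

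GATA4, GATA5 and GATA6 bind the same short DNA sequence and act early in the heart, in the mesoderm around the foregut and gut, and in foregut endoderm. Their activity is tuned by the cofactors FOG1 and FOG2, encoded by Zfpm1 and Zfpm2. NKX2-5, TBX20 and HAND factors work with them in heart progenitors and heart muscle, and ISL1 marks progenitors that are added to the heart from the mesoderm next to the foregut. None of these genes is restricted to the heart: HAND2 and ISL1 are also made by neural crest-derived and other neurons, GATA6 by lung and airway endoderm, and GATA4 and GATA5 by mesothelium and gut.

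RefSeq promoter sequence was given for 5 of the 8 genes, as the stretch before the annotated start in build GRCm38.p6. The 250 bases before the start are shown for Gata5 and Isl1, which were lower in E13.5 mutants, and for Hand2, which was not, so that both outcomes can be set against the same motif letters. Capitals mark matches to GATA letters, which are AGATAA and TGATAA and also AGATAG and TGATAG, and to the NKX2-5 letters AAGTG. Both strands were read, so a match on the other strand appears as its reverse complement.
Gata5, chr2:180334680-180334929, minus strand: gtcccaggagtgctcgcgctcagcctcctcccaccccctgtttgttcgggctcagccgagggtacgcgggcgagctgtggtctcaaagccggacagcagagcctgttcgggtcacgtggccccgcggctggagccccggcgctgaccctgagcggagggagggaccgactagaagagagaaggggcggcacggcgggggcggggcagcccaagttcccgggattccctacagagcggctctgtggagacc
Isl1, chr13:116309689-116309938, minus strand: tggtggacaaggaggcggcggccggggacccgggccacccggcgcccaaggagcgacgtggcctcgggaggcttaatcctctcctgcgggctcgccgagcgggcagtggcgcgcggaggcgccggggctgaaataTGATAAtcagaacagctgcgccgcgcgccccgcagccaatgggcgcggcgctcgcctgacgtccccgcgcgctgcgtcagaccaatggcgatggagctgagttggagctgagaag
Hand2, chr8:57320733-57320982, plus strand: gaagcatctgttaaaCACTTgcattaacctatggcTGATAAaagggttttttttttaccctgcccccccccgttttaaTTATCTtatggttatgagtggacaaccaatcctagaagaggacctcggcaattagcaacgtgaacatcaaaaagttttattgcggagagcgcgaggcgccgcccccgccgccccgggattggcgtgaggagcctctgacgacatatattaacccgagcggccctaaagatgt
The Isl1 stretch held 1 GATA match, at bases -115 to -110 from the start, and the Hand2 stretch held 2 GATA matches and 1 NKX2-5 match, none overlapping another. Those of Gata5, Nkx2-5 and Tbx20 held none of these letters. Of 32851 promoters of the same length, 26.5% held a GATA match and 40.7% an NKX2-5 match. The letters CTTTGAT and CTTTGAA, bound by the Wnt-responsive TCF/LEF factors, were found in 7.48% of promoters and in none of the 5. The matches are letters in the sequence only.

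Total estimated counts were 9898300 to 11901835 in 6 libraries and 18475686 and 16760832 in the E13.5 mutants. Wls went with the labels, at 155 and 164 CPM (counts scaled to each library's total) in E11.5 controls against 118 and 109 in mutants, and at 168 and 158 CPM in E13.5 controls against 73.9 and 71.7 in mutants. The respiratory epithelial gene Nkx2-1 (52.2 to 93.3 CPM), the cartilage gene Sox9 (59.7 to 163 CPM) and the smooth muscle actin gene Acta2 (97.2 to 977 CPM) were present in every library. At each stage the mutant libraries lay below the controls in Xist and above them in the Y-linked Ddx3y, so the sex of the cells and the genotype cannot be told apart. Xist was at 6.34 CPM and Ddx3y at 106 CPM in E13.5 mutant replicate 1. Every other library had Xist at 526 to 2673 CPM and Ddx3y at 19.8 to 66.8 CPM, so each of those held RNA of both sexes. In whole tissue, fewer cells of a type and less RNA per cell cannot be told apart either.

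Per kilobase of gene model, the 8 genes fell into a high and a low set. In E11.5 controls the deposited RPKM averaged 28.0 ± 2.63 (SD, n = 2) for Isl1, 21.6 ± 1.79 for Gata6, 19.5 ± 2.06 for Hand2, 13.2 ± 0.356 for Gata4 and 10.1 ± 1.27 for Gata5. Below them came Hand1 at 3.99 ± 1.44, Nkx2-5 at 3.36 ± 0.708 and Tbx20 at 2.32 ± 0.429. The libraries of Gata6 and Hand2 overlapped, as did those of Hand1 and Nkx2-5, and every other neighbour in this order was apart. In E11.5 mutants Gata6 led at 22.6 ± 1.72 RPKM, ahead of Isl1 at 20.4 ± 0.0124, and in E13.5 controls Gata6 led again at 23.5 ± 2.42, ahead of Isl1 at 20.2 ± 2.22 and Hand2 at 17.3 ± 2.93. Gata4, Tbx20, Nkx2-5 and Gata5 followed in E13.5 controls, at 8.60 ± 3.32, 6.59 ± 4.19, 4.08 ± 1.93 and 3.03 ± 0.0765 RPKM, and neighbours among these 4 overlapped. In E13.5 mutants the order by RPKM began with Hand2 at 16.6 ± 1.86, followed by Isl1 at 13.3 ± 2.59 and Gata6 at 10.8 ± 2.999, of which the last 2 overlapped. Gata5, the fifth gene in this order at E11.5 in both genotypes, was the seventh at E13.5 in both, at 0.718 ± 0.0482 RPKM in mutants. Hand1 was last at E13.5, at 0.130 ± 0.139 RPKM in mutants.

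**Figure D1:**
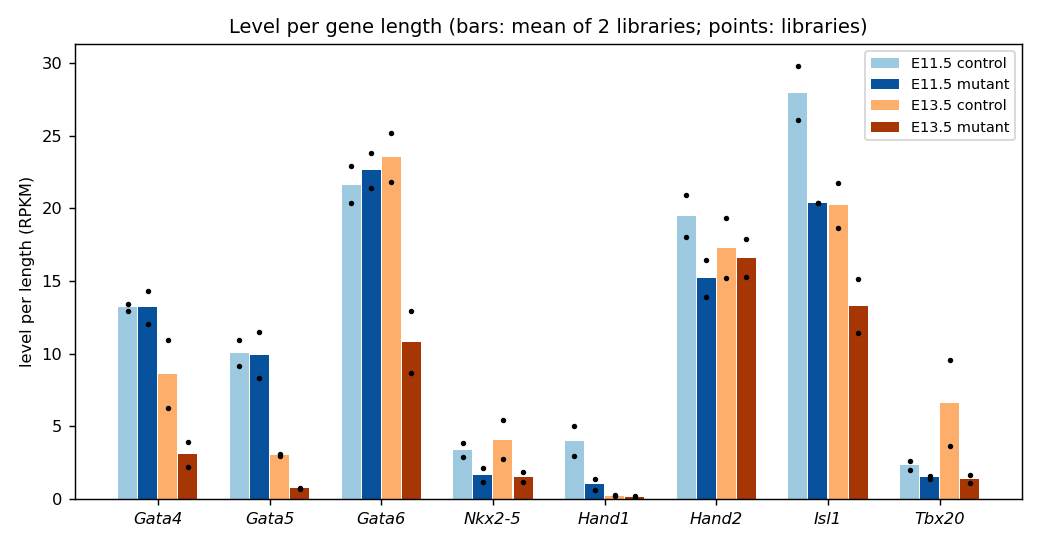
Level per gene length of the 8 factors, in RPKM as deposited, by group; bars are means of 2 libraries and points the libraries. Isl1, Gata6 and Hand2 were highest in controls, and in E13.5 mutants Hand2 led at 16.6 RPKM.

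In the E11.5 mutants no factor passed the test, while 5 of the 8 were lower in both mutant libraries than in both controls. These 5 were Hand1, Nkx2-5, Tbx20, Isl1 and Hand2, and the 3 Gata genes overlapped between genotypes. Calls here are an adjusted p under 0.05 in edgeR's quasi-likelihood test, with Benjamini-Hochberg adjustment over 14903 genes. At E11.5 this called 0.362% of all genes tested, 0.0738% higher and 0.289% lower, and 4 of the 8 factors had an unadjusted p under 0.05. DESeq2 and limma-voom also called 0 of the 8. Groups that do not overlap were common, since they were found for 36% of all genes tested, with 17.9% lower in both mutants.

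For each Gata gene the E11.5 mutants stood close to the controls. Gata4 was at 46.1 and 44.8 CPM in controls and 41.2 and 48.9 CPM in mutants. Gata5 was at 30.6 and 37.0 CPM in controls and 27.7 and 38.2 CPM in mutants. Gata6, which lung and airway epithelium needs for its differentiation, was at 65.7 and 74.7 CPM in controls and 68.8 and 76.7 CPM in mutants. The mutant and control libraries overlapped for all 3, and the log2 fold changes were -0.01 (SE 0.34) for Gata4, -0.03 (SE 0.14) for Gata5 and 0.05 (SE 0.19) for Gata6.

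Hand1, a factor of early heart and of extraembryonic tissue, had the widest gap at E11.5. It was at 5.71 and 9.70 CPM in controls and 1.22 and 2.65 CPM in mutants, which is 62 and 113 counts against 12 and 30. Both mutant libraries lay below both controls (log2 fold change -1.97, SE 0.44, adjusted p = 0.136 in edgeR). Isl1 was at 66.6 and 76.9 CPM in controls and at 51.9 CPM in each mutant (-0.47, SE 0.14, adjusted p = 0.340 in edgeR). For these 2 genes the call depended on the libraries of the other stage: fitted on the 4 libraries of E11.5 alone the adjusted p was 0.0355 for Hand1 and 0.0144 for Isl1. It was 0.0214 and 0.0290 without E13.5 mutant replicate 1, and 0.0219 and 0.0301 without E13.5 mutant replicate 2.

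Nkx2-5, a first marker of heart progenitors, was low at this stage, at 4.42 and 6.01 CPM in controls and 1.83 and 3.26 CPM in mutants (-1.02, SE 0.41, adjusted p = 0.579 in edgeR). Tbx20 was at 14.005 and 18.4 CPM in controls and 9.37 and 11.2 CPM in mutants (-0.66, SE 0.63). Hand2 was at 40.6 and 47.7 CPM in controls and 31.4 and 37.1 CPM in mutants (-0.37, SE 0.14). Each had its mutants below its controls by less than the test requires. Over the 8 factors the median log2 fold change was -0.42, beside 0 for all genes tested.

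**Figure D2:**
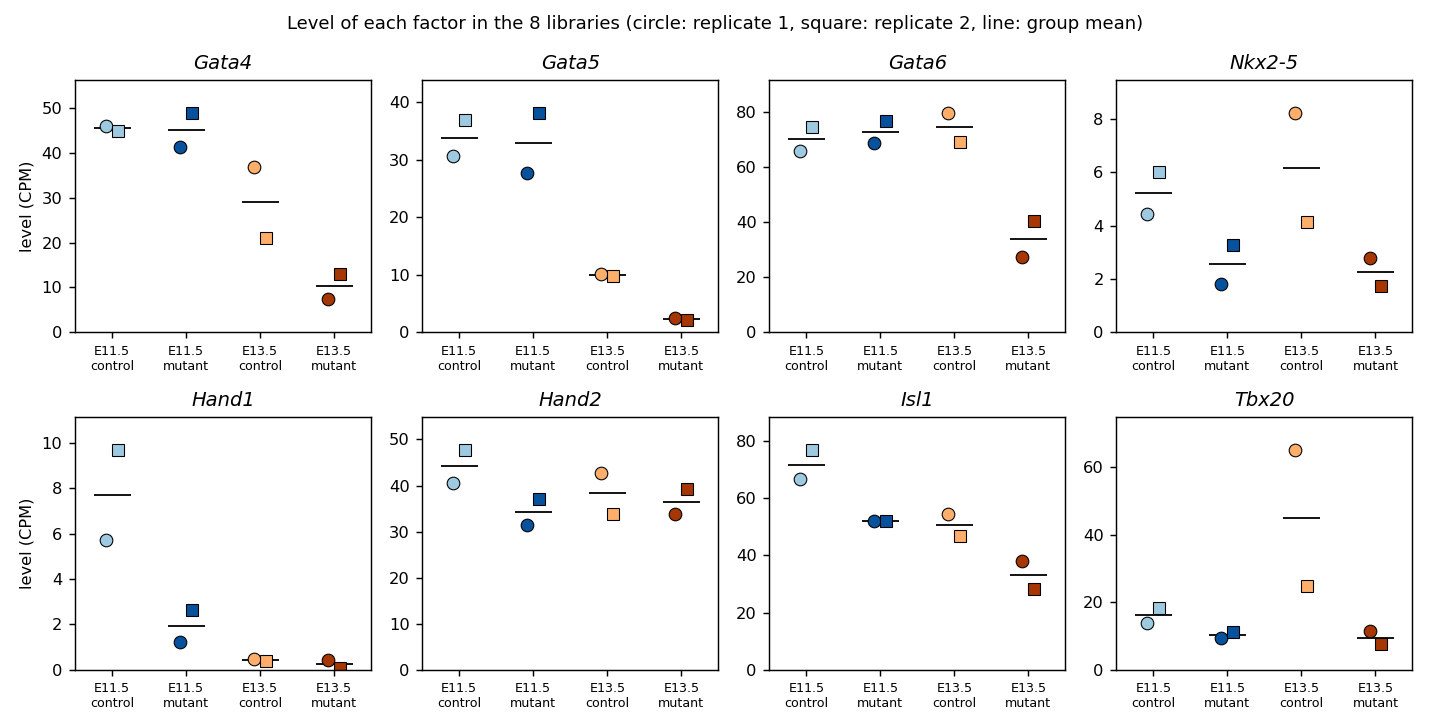
Level of each factor in CPM in the 8 libraries, by group; circles are replicate 1, squares replicate 2 and lines group means. The 3 Gata genes overlap between genotypes at E11.5 and are lower in both mutants at E13.5, while Hand2 overlaps at E13.5.

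In the E13.5 mutants 4 of the 8 factors fell: Gata5, Gata6, Nkx2-5 and Isl1. Gata5 was 4.23-fold lower, Nkx2-5 2.70-fold, Gata6 2.20-fold and Isl1 1.53-fold. Gata4 and Tbx20 were also lower in both mutants than in both controls, by 2.84-fold and 4.75-fold, but did not pass in edgeR. Hand1 and Hand2 overlapped between genotypes, and no factor rose. At this stage 11.8% of all genes tested were called, 5.82% lower and 5.97% higher; 54.5% had groups apart, and 27.2% lay lower in both mutants. The median log2 fold change of the 8 was -1.28, beside -0.0023 for all genes tested.

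Gata5, which acts in heart valves and gut mesoderm and endoderm, showed the tightest difference. It was at 10.1 and 9.84 CPM in E13.5 controls and at 2.47 and 2.22 CPM in mutants, or 108 and 105 counts against 46 and 38. The controls lie together far above both mutants (-2.08, SE 0.21, adjusted p = 3.6e-05 in edgeR), and the call held in all 15 alternatives, with an adjusted p of at most 0.00347. The genotype difference in Gata5 also differed between the stages (interaction -2.05, SE 0.25, adjusted p = 8.1e-04 in edgeR), where 3.33% of all genes tested were called, 1.7% below 0 and 1.63% above. No other factor had an interaction call; the next in adjusted p, Gata6, stood at -1.19 (SE 0.27, adjusted p = 0.0904 in edgeR), and 5 of 14 alternatives called it. The interaction was -1.499 (SE 0.52) for Gata4 and -1.59 (SE 0.84) for Tbx20, the latter with an adjusted p of 0.0180 without E13.5 control replicate 2.

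Gata6 was at 79.8 and 69.3 CPM in E13.5 controls and at 27.5 and 40.4 CPM in mutants (-1.14, SE 0.19, adjusted p = 0.0143 in edgeR). The mutants differed from each other, yet the higher of them was well below the lower control. Gata4 was at 36.8 and 21.1 CPM in controls and at 7.41 and 13.05 CPM in mutants (-1.51, SE 0.39, adjusted p = 0.0920 in edgeR). It passed with DESeq2 (adjusted p = 0.00334), limma-voom (adjusted p = 0.00941) and a fit that was not robust (adjusted p = 0.00611), and without control replicate 2 (adjusted p = 0.0331). Without control replicate 1 the adjusted p of Gata6 was 0.0869, and on the 4 libraries of E13.5 alone it was 0.0947.

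Isl1 was at 54.5 and 46.9 CPM in E13.5 controls and at 37.9 and 28.4 CPM in mutants (-0.61, SE 0.14, adjusted p = 0.0229 in edgeR). Nkx2-5 was at 8.24 and 4.12 CPM in controls and at 2.79 and 1.76 CPM in mutants (-1.43, SE 0.38, adjusted p = 0.0357 in edgeR). In both genes control replicate 1 was the highest E13.5 library and mutant replicate 2 the lowest. Without control replicate 1 neither passed, with an adjusted p of 0.312 for Nkx2-5, whose log2 value became -0.85, and 0.153 for Isl1. The 4 libraries of E13.5 alone gave adjusted p = 0.0657 for Nkx2-5 and 0.0792 for Isl1. For Nkx2-5 the adjusted p was also 0.136 without mutant replicate 2, and 0.0565 and 0.0556 without E11.5 control replicates 1 and 2, while Isl1 had 0.0691 and 0.0662 without E11.5 mutant replicates 1 and 2.

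Tbx20, a T-box factor of heart muscle, was at 65.2 and 24.8 CPM in E13.5 controls and at 11.4 and 7.49 CPM in mutants. Control replicate 1 stood far above control replicate 2, and both mutants lay below both, while the difference between genotypes (-2.25, SE 0.56) missed the threshold in edgeR (adjusted p = 0.0911). It passed with DESeq2 (adjusted p = 9.6e-04), limma-voom (adjusted p = 0.0146) and a fit that was not robust (adjusted p = 0.00409). It also passed without control replicate 1 (-1.39, adjusted p = 0.0112) and without control replicate 2 (-2.78, adjusted p = 3.7e-04). Hand2 was at 42.8 and 33.8 CPM in controls and at 33.8 and 39.2 CPM in mutants (-0.07, SE 0.13), so the groups overlapped. Hand1 was near its lower limit, with 5 and 4 counts in controls and 8 and 1 in mutants (-0.72, SE 0.91).

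**Figure D3:**
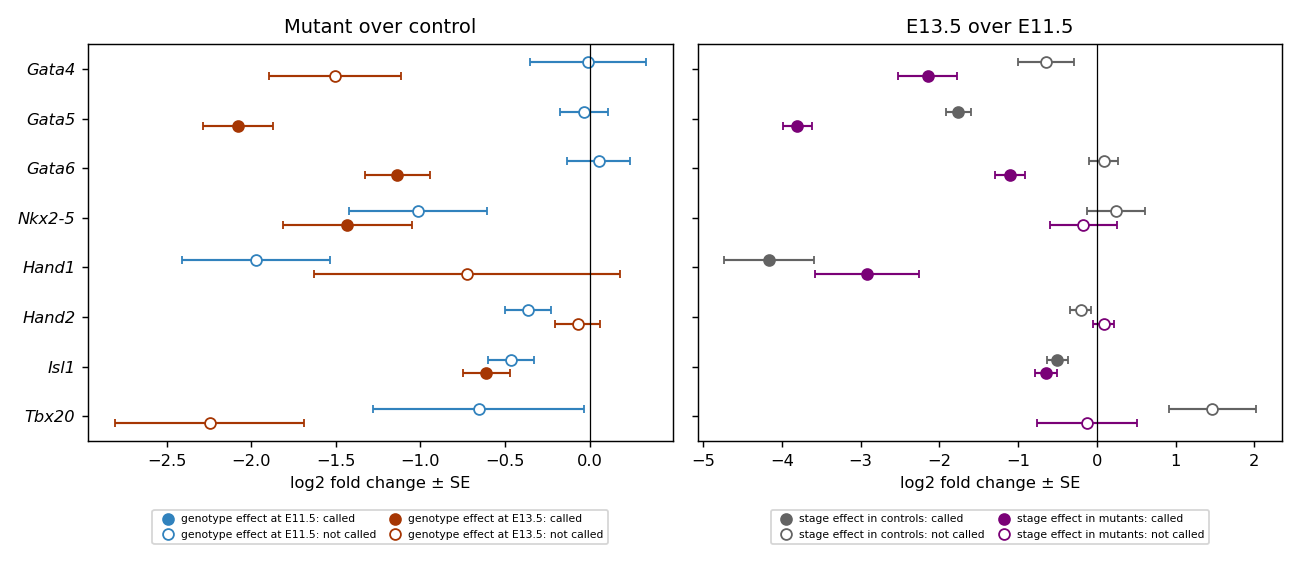
Log2 fold changes of the 8 factors with their standard errors, mutant over control on the left and E13.5 over E11.5 on the right; filled points passed an adjusted p of 0.05 in edgeR. At E11.5 the Gata genes lie close to 0, and at E13.5 all 8 points lie below 0, with 4 of them filled.

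The cofactor and partner genes were divided at E13.5. Of 23 tested members of a list of 27 partners of these factors in the tables, 6 fell, 5 rose and 12 did not pass, with a median of -0.01. Those that fell were Tbx3 (-1.43), Tbx2 (-1.39), Tbx5 (-1.37), the forkhead gene Foxc2 (-1.19), Hey2 (-0.95) and Zfpm1 (-0.81, SE 0.12). Zfpm1 was at 28.6 and 26.1 CPM in controls and 14.6 and 16.8 CPM in mutants. Zfpm2 was at 28.1 and 27.4 CPM in controls and 9.40 and 17.2 CPM in mutants, and its -1.07 did not pass (adjusted p = 0.0629 in edgeR, with 6 of 15 alternatives below 0.05). Among those that rose were Myocd (1.71), a coactivator of smooth and heart muscle genes, Foxf1a (1.05), Tbx1 (0.78) and Srf (0.40). Of the genes named here as called, Foxf1a and Hey2 passed in 13 of 15 alternatives and the others in all, with a highest adjusted p of 0.110 for Foxf1a without control replicate 1 and 0.103 for Hey2 without control replicate 2. The count that rose was 3 without either E13.5 control. At E11.5, Tbx2, Tbx3 and Tbx5 fell, 20 of 23 did not pass, and the list's median was 0.00.

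Heart muscle genes varied widely across the E13.5 libraries. The summed level of 21 such genes was 2273 and 1057 CPM in E13.5 controls and 1043 and 367 CPM in mutants, against 102 to 149 CPM in all E11.5 libraries. Myh6, the alpha myosin heavy chain gene, was at 526 and 218 CPM in the controls and 127 and 20.2 CPM in the mutants. Myl7, an atrial light chain gene, was at 283 and 119 CPM against 61.0 and 14.3 CPM. The ventricular light chain genes Myl2 and Myl3 were at 0.936 CPM or less in every library, with Myl2 at 0 counts in 4 of the 8.

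From high to low, the order control replicate 1, control replicate 2, mutant replicate 1, mutant replicate 2 was found for Tbx20, Nkx2-5, Isl1 and Gata5. It was also found for 11 of the 18 heart muscle genes that averaged at least 1 CPM, and for 6.73% of all genes tested. The other 7 heart genes had other orders, and that of Pln began with mutant replicate 2 and mutant replicate 1. By summed level, the order of Tbx20 was also that of distal lung genes, of Gata1, Gata2 and Gata3 together, and of Wls with Shh. Within a genotype the order of Gata5 rests on 108 against 105 and 46 against 38 counts, which do not resolve it. The part of heart muscle RNA in the differences of these factors was not tested. In edgeR 1 heart gene fell at E13.5, the natriuretic peptide gene Nppa (-3.76, adjusted p = 9.8e-05), and 1 rose, Pln (1.5), while 16 of 18 did not pass, with a median of -1.42 that was -0.71 without E13.5 control replicate 1 and -2.23 without E13.5 mutant replicate 1. The number that fell depended on the tool, with 6 in DESeq2, 10 in limma-voom, 10 in the fit that was not robust and 7 with a replicate block, and it was 3 without E13.5 control replicate 2 and 2 without E13.5 mutant replicate 1. Nppa passed in all 15 alternatives, and Pln in 10 of 15, with a highest adjusted p of 0.201 in DESeq2. At E11.5, 0 of the 18 were called by edgeR, DESeq2 or limma-voom, and 0 had an unadjusted p under 0.05 in edgeR.

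Gata4 and Gata6 had another order, control replicate 1, control replicate 2, mutant replicate 2, mutant replicate 1, which 8.16% of all genes tested had. By summed level the gut, erythroid and sex-linked genes had it, and the mesothelial genes did not. Among genes of the mesothelium, the cell layer that covers heart and lung, 5 of the 10 that averaged at least 1 CPM had it too. The 3 given here were chosen after their values were seen, as those with the lowest log2 fold changes of the list. Upk3b was at 38.0 and 13.96 CPM in controls and at 1.56 and 8.66 CPM in mutants, Lrrn4 at 20.2 and 7.50 against 1.56 and 4.45 CPM, and Wt1 at 11.98 and 8.25 against 1.504 and 5.56 CPM. The summed level of the 12 listed genes was 361 and 287 CPM in controls and 197 and 316 CPM in mutants, so the groups overlapped. Of the 11 tested at E13.5, 8 lay below 0 and 3 above, Upk1b (0.39), Msln (0.41) and Krt19 (0.20), with a median of -0.43. That median was -0.17 and -0.53 without E13.5 control replicates 1 and 2. It was 0.000105 without E13.5 mutant replicate 1 and -0.85 without E13.5 mutant replicate 2. EdgeR called 0 of the 11 genes, with 4 at an unadjusted p under 0.05. DESeq2 called 2 lower, limma-voom 3 and the fit that was not robust 4. In edgeR 5 were lower without E13.5 mutant replicate 2, 2 without E13.5 control replicate 2 and 1 without E13.5 mutant replicate 1. The part of mesothelial RNA in the Gata4 and Gata6 differences was not tested.

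**Figure D4:**
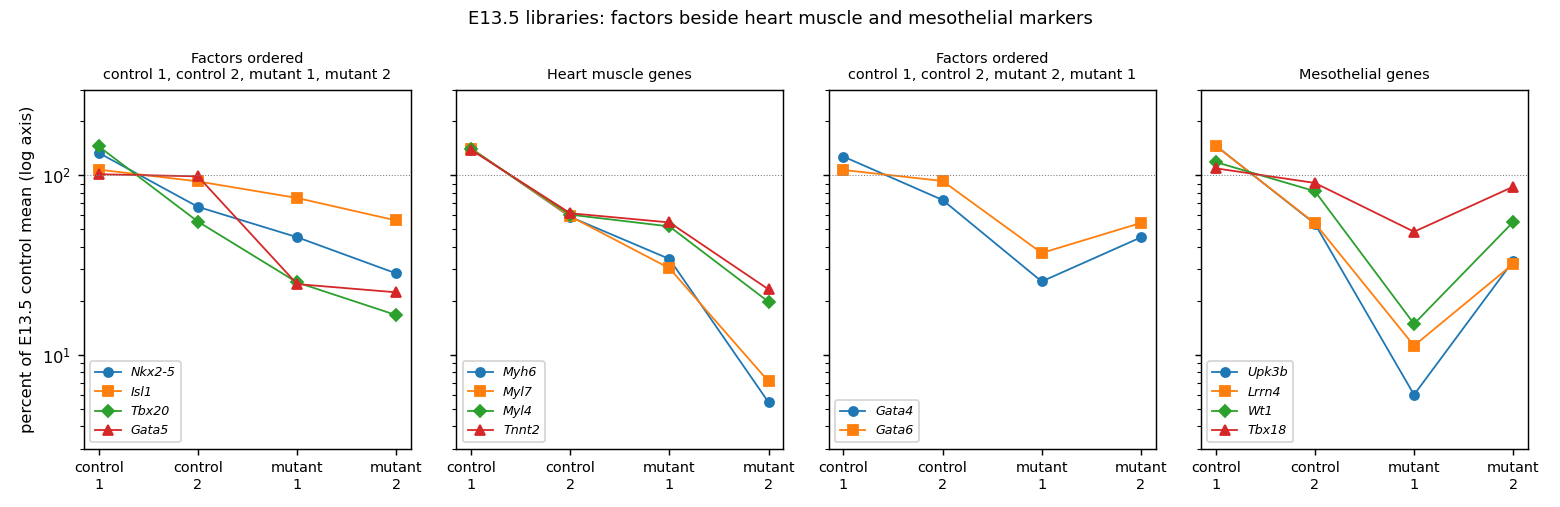
Levels in the 4 E13.5 libraries as percent of the control mean of the same gene, on a log axis; lines join the libraries of a gene. Tbx20, Nkx2-5, Isl1 and Gata5 decline from left to right, Gata5 with controls alike, as do the 4 heart muscle genes drawn, which are among the 11 of 18 with this order, and Gata4 and Gata6 have their lowest value in mutant replicate 1, as do Upk3b, Lrrn4, Wt1 and Tbx18, drawn from the 5 of 10 mesothelial genes with their order.

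Gata5 was also set beside gut genes, which were lower in the E13.5 mutants. Together the 25 gut markers stood at 140 and 126 CPM in E13.5 controls and at 46.6 and 59.0 CPM in mutants, and 19 of the 24 tested fell. Their median was -3.53, or -3.10 with the 6 genes that had 0 counts in both mutants set to a floor of 3 counts per library. In each E13.5 mutant library 8 of the 25 had 0 counts, among them Hnf4a, the hepatic and gut nuclear receptor gene, which was at 3.28 and 2.62 CPM in controls and so at least 17.5-fold lower in mutants. In E11.5 libraries the sum was 115 to 163 CPM. Between the control stages 1 of 24 was called higher and 0 lower by edgeR, with 1 at an unadjusted p under 0.05, while Gata5 fell 3.39-fold. The part of gut RNA in the E13.5 Gata5 difference was not tested. Airway epithelial genes went the other way in the same mutants, with 12 of 16 higher and a median of 0.60, among them Krt5 (4.11), Sox2 (0.90), Grhl2 (0.84), Foxa1 (0.83), Foxa2 (0.83) and Cldn4 (0.78), of which Krt5 passed in 12 of 15 alternatives and the others in all. The median of this airway list was 0.65 and 0.64 without E13.5 control replicates 1 and 2, and fewer of the 16 passed. Gata6, which airway epithelium also makes, fell in the E13.5 mutants. The part of airway epithelial RNA in the Gata6 difference was not tested.

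Hand2 and Isl1 were set beside autonomic neuron and neural crest genes, since such cells also make both. The 18 listed genes summed to 523 and 532 CPM in E13.5 controls and 539 and 618 CPM in mutants; 3 rose, 2 fell and 13 did not pass, with a median of -0.15. Among those called were Ret (0.76) and Erbb3 (0.55), which were higher, and Tlx2 (-0.91) and Dbh (-0.84), which were lower. Erbb3 passed in 14 of 15 alternatives, Dbh in 9, Ret in 7 and Tlx2 in 6, where leaving out E13.5 control replicate 1 gave the highest adjusted p for Dbh, 0.252, and for Tlx2, 0.494. The count of those that fell was 0 in DESeq2 and without E13.5 control replicate 1 or either E13.5 mutant, 1 without either E11.5 control or E13.5 control replicate 2, and 5 without either E11.5 mutant. The count of those that rose was 2 or 3 with a library left out. At E11.5 the sum was 288 and 303 CPM in controls and 433 and 341 CPM in mutants, with 0 called by edgeR, DESeq2 or limma-voom, 5 at an unadjusted p under 0.05 in edgeR and 4 called higher without E11.5 mutant replicate 2, while Isl1 and Hand2 lay lower in those mutants.

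Between the stages, the control libraries came to have less Hand1, Gata5 and Isl1. These contrasts use the same libraries as the genotype contrasts. Each stage has its own deposited table, so stage and any difference in processing between the tables cannot be told apart. In controls 3 of the 8 factors fell from E11.5 to E13.5, and 0 rose, where 42.4% of all genes tested were called, 21% lower. Groups apart were found for 5 of the 8, against 73.2% of all genes tested, with 36.9% higher and 36.3% lower. Hand1 fell 17.9-fold, from 62 and 113 counts to 5 and 4 (-4.16, SE 0.57, adjusted p = 2.0e-04 in edgeR). Gata5 fell from 33.8 ± 4.52 CPM (SD, n = 2) to 9.97 ± 0.191 CPM (-1.76, SE 0.16, adjusted p = 5.5e-06 in edgeR). Isl1 fell from 71.7 ± 7.26 to 50.7 ± 5.39 CPM (-0.50, SE 0.14, adjusted p = 0.0168 in edgeR); without E11.5 control replicate 2 and E13.5 control replicate 2 its adjusted p was 0.101 and 0.0959. Gata6 (0.09, SE 0.19), Hand2 (-0.21, SE 0.14) and Nkx2-5 (0.24, SE 0.37) overlapped between the control stages.

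Tbx20 was the 1 factor with both E13.5 controls above both E11.5 controls, at 45.0 ± 28.5 CPM against 16.2 ± 3.14 CPM (1.47, SE 0.55, adjusted p = 0.104 in edgeR). It passed with DESeq2 (adjusted p = 0.0259), limma-voom (adjusted p = 0.0365), a fit that was not robust (adjusted p = 0.0104) and without E13.5 control replicate 2 (adjusted p = 5.2e-04). Heart muscle genes rose between the same controls, 15 of 18 with a median of 3.79. That count rests on single libraries: it was 2 without either E11.5 control, 7 without either E11.5 mutant and 6 without E13.5 control replicate 1, with medians from 3.25 to 4.27. Gata4 had both E13.5 controls below both at E11.5 (-0.65, SE 0.35, adjusted p = 0.217 in edgeR, and 0.0358 in limma-voom).

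In mutants 5 of the 8 factors fell from E11.5 to E13.5, namely Gata5, Hand1, Gata4, Gata6 and Isl1. These 5 were also the ones whose stages were apart. Of all genes tested 48.4% were called, 24.6% lower; groups were apart for 74.9%, and lower for 37.2%. Gata5 fell 13.99-fold, from 27.7 and 38.2 CPM to 2.47 and 2.22 CPM (-3.81, SE 0.19, adjusted p = 1.4e-08 in edgeR). Gata4 fell 4.44-fold, from 45.1 ± 5.45 CPM (SD, n = 2) to 10.2 ± 3.99 CPM (-2.15, SE 0.38, adjusted p = 0.00934 in edgeR), and Gata6 2.15-fold, from 72.8 ± 5.59 to 34.0 ± 9.14 CPM (-1.10, SE 0.19). Hand1 fell by 2.92 on the log2 scale (SE 0.66) and Isl1 by 0.65 (SE 0.14). Without E11.5 mutant replicate 2 the adjusted p was 0.0562 for Gata4 and 0.0559 for Hand1. Nkx2-5 (-0.17, SE 0.43), Hand2 (0.09, SE 0.14) and Tbx20 (-0.12, SE 0.63) overlapped between the mutant stages.

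The genes whose profile over the 8 libraries lay nearest to a factor were sought for the 5 factors with at least 50 counts in every library, as the root-mean-square difference of log2 CPM centred on each gene's mean, among 11020 other genes. Nearest to Gata6 was Zfpm2, at a difference of 0.128, followed by Sh3tc2 (0.133) and Ncald (0.153), where Gata6 itself ranged over 1.53. Nearest to Isl1, which ranged over 1.43, were Acer2 (0.126), Igf2r (0.142) and Tmem132c (0.145). Nearest to Hand2, which ranged over 0.603, were Cbr4 (0.0853), Cbx8 (0.0888) and Ebp (0.103). Gata4, which ranged over 2.7, had Gm20269 (0.301), the cartilage link protein gene Hapln1 (0.321) and 9930013L23Rik (0.332). For Tbx20, which ranged over 3.09, Shisa6 (0.438), Snap91 (0.458) and Wwp2 (0.471) were first. Over these 5 factors the smallest difference was larger where the factor's own range was wider.

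The libraries do not mark the strand of origin, since the kit named in the labels does not, so reads of genes that overlap on opposite strands cannot be told apart. In the GENCODE vM21 annotation, Gata5, Hand2 and Gata6 overlap Gata5os, Hand2os1 and 1010001N08Rik on the other strand. The last had 0 counts at E11.5 and 2.53 and 1.13 CPM in E13.5 controls and 0.591 and 1.17 CPM in mutants, small beside Gata6. Gata5os and Hand2os1 were not among the deposited gene symbols, so their level could not be set beside Gata5 and Hand2.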

How the data were processed

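RNA was measured in 8 libraries of mouse trachea. Per the file headers, the authors deposited a raw count and a read density per gene and library, in 1 table per stage. The deposited values in the count columns are estimated counts, because between 76.3% and 82.6% of each library's nonzero values hold a fraction; in the same tables the deposited density, RPKM, was used for levels between genes. The implied lengths of the 8 genes were the same in both tables. The submitters' processing notes list DESeq, Cufflinks 2.0.2, TopHat2 2.0.8 and Bowtie2 2.1.0 with build mm9. The counter and its gene models were not given in the sources used here. Counts were summed by symbol and rounded to whole numbers; entries that name no gene (0.000985% to 0.0253% of counts) were left out.

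edgeR 4.0.16 in R 4.3.3 was used with filterByExpr, which kept 14903 genes and all 8 factors, TMM scaling (factors 0.980 to 1.02), and a robust quasi-likelihood fit with 1 mean per group and 4 residual degrees of freedom. The common biological coefficient of variation was 7.79%. CPM are scaled the same way, and log2 CPM took a prior count of 2. P-values were adjusted by Benjamini-Hochberg over all genes tested. The fit was also run on simulated counts that gave every gene the same spread, so this does not bear on genes that varied more. Replicates differed by more than counting noise (chi-square per degree of freedom 3.38 to 8.57). Alternatives were RLE factors, no filter, DESeq2 1.42.0, limma-voom (limma 3.58.1), a fit that was not robust, a replicate block, the 4 libraries of a stage alone and each library left out. Counts over the gene lists under these alternatives were added after the data were seen.

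The 8 factors and all marker lists were chosen with earlier results of these data known. Named from the lists were up to 6 genes past the threshold by size and up to 3 with high CPM; the library orders at E13.5, and other list genes named (such as Zfpm2, Hnf4a, Myl2 and Upk3b), were chosen after their values were seen. Some list genes past the threshold are not reported here by name.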

Additional observations from a re-analysis of the deposited data

Results flagged for a closer look

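Gata5 was the 1 factor whose genotype difference changed between the stages by a test of that change itself. The interaction was -2.05 on the log2 scale (SE 0.25, adjusted p = 8.1e-04 in edgeR), from a difference of -0.03 at E11.5 to one of -2.08 at E13.5. Both E13.5 mutant libraries lay below both controls, and the E11.5 libraries overlapped. The call held in all 14 alternatives, with an adjusted p from 1.8e-07 to 0.0207.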

How the results depend on the processing

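With 2 libraries a group, calls near the threshold moved. Over 575 comparisons of a factor's value with an alternative, 42 changed side of the threshold and 22 changed sign, 0 of the latter past the threshold in their alternative. The number of factors called was 2 in place of 0 at E11.5 on the 4 libraries of that stage, and 1 in place of 4 at E13.5 on the 4 libraries of that stage. It was 5 in place of 3 for the stage effect in controls with limma-voom, and 2 in place of 1 for the interaction under DESeq2, under limma-voom and when the fit was made without robust weighting. With each library left out in turn it ranged from 0 to 2 for the genotype effect at E11.5, 2 to 6 at E13.5, 2 to 3 for the stage effect in controls, 3 to 5 in mutants, and 1 to 2 for the interaction. The causes of these changes were not tested. A lone fit of a stage has fewer libraries to estimate the spread, and its count went up at E11.5 and down at E13.5.

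Leaving out 1 library turned the sign of small values. At E11.5 the genotype effect ranged from -0.14 to 0.11 for Gata4, -0.29 to 0.18 for Gata5 and -0.039 to 0.14 for Gata6. At E13.5 it ranged from -2.64 to 0.030 for Hand1 and -0.23 to 0.11 for Hand2. The stage effect in controls ranged from -0.025 to 0.18 for Gata6 and -0.35 to 0.65 for Nkx2-5. In mutants it ranged from -0.030 to 0.22 for Hand2, -0.55 to 0.32 for Nkx2-5 and -0.46 to 0.14 for Tbx20. The interaction ranged from -0.68 to 2.00 for Hand1, -0.37 to 0.054 for Isl1 and -0.83 to 0.17 for Nkx2-5. Where a group was left with 1 library, it was assumed to vary like the other groups.

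The labels do not say whether replicate numbers pair the libraries. Deviations of same-numbered libraries correlated at -0.0646 to 0.0449, which shows no pairing but cannot exclude one. With a replicate block the number of factors called was 0 at E11.5, 3 at E13.5, 3 and 5 for the stage effects and 1 for the interaction; Nkx2-5 at E13.5 had an adjusted p of 0.0524. Over all genes the E11.5 count of 54 was 120 when that stage was fitted alone, 95 in DESeq2, 92 without the filter on low counts, 29 in limma-voom and 20 to 100 with a library left out. Left-out libraries also gave 935 to 1770 in place of 1757 genes at E13.5 and 280 to 674 in place of 496 for the interaction. Hand1 at E13.5, with 1 to 8 counts a library, could show only large differences at this depth.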

Other observations

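The other GATA genes act in blood, endothelium, neurons and epithelium. Gata2, a factor of blood progenitors and endothelium, was at 9.27 and 10.8 CPM in E13.5 controls and at 4.67 and 4.27 CPM in mutants. It fell (-1.16, SE 0.19, adjusted p = 0.00103 in edgeR), and the 10 endothelial genes had a median of -0.47 in the same contrast, with 4 lower (7 without either E11.5 mutant and in DESeq2). Gata1, the erythroid factor, fell from 3.32 and 3.78 CPM in E11.5 controls to 0.468 and 0.0937 CPM in E13.5 controls (-3.61, adjusted p = 3.0e-04 in edgeR), where 8 of 11 erythroid genes were lower as well. Gata3 was at 4.50 to 14.2 CPM and passed in no genotype or stage contrast, with a genotype difference of -0.55 (SE 0.33) at E11.5 and 0.06 (SE 0.35) at E13.5 on the log2 scale.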
